A study of Drosophila melanogaster with 10 samples.

Results

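Whole Drosophila melanogaster larvae of the third instar labelled E(z) RNAi were compared with control larvae. The members of this comparison were the 4 of the series' 10 arrays whose titles name one of these larval groups, 2 arrays per group, and every probe set of the array maker's own controls was left out. Per the labels, RNA came from 20 larvae per sample, raised at 25 °C. The RNAi construct was UAS-E(z)-RNAi, a hairpin under the yeast UAS sequence that needs a GAL4 driver to be transcribed. The sources used here name no driver, so the tissues in which the hairpin was made are unknown, and the genotype field of these samples reads wild type, as it does for the controls. The other larval group, 2 arrays of the Minos insertion line Jarid2MB00996/TM3, entered the fit for its spread and is set beside the results. The labels do not say whether the 2 samples of a group came from separate cultures, so the spread that p-values rest on may be technical.

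E(z) is the catalytic subunit of Polycomb repressive complex 2 (PRC2), which methylates histone H3 on a lysine of its tail. Chromatin with this mark is bound by Polycomb repressive complex 1, and the genes in it, among them the Hox genes and many other regulators of development, are kept silent in cells where they are not used. In larvae, loss of E(z) function is known to release such genes and to impair the growth of imaginal discs, the epithelia that form the adult body. The comparison asks which genes differ when E(z) is the target of RNAi.

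The values were log2 expression values per probe set, so a difference of 1 is a doubling. Array medians of the 6 larval arrays lay between 7.39 and 7.54. A probe set or gene is named as called where the adjusted p of limma's moderated test, corrected by Benjamini-Hochberg over the 18769 probe sets, was under 0.05, and each difference is the mean of the labelled E(z) RNAi arrays minus the mean of the control arrays, with its standard error and 2 arrays per group. Some markers of the third instar were high in all 4 arrays. The salivary glue gene Sgs7 read between 15.10 and 15.18, and the storage protein gene Lsp2 between 14.86 and 15.07. Other glue genes did not read alike in replicates. The median over the 20 measured glue genes was 10.96 and 6.92 in the control arrays and 10.06 and 8.21 in the labelled arrays. As a sign of RNA quality, the 3′ minus 5′ difference of the actin control probe sets was 0.049 and 0.163 in the control arrays, 0.198 and 0.256 in the labelled E(z) RNAi arrays and -0.081 and -0.051 in the Jarid2 arrays. For eIF-4a it was 0.737 and 0.756, 0.872 and 0.933, and 0.595 and 0.732, so that both labelled arrays were again the highest, while for GAPDH the groups overlapped (0.755 and 0.861, 0.927 and 0.757, and 0.651 and 0.932). The part of these differences in the results was not tested.

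The gene that the label names did not read lower where the label is E(z) RNAi. E(z) read 8.53 and 8.31 in the control arrays, 9.25 and 9.56 in those labelled E(z) RNAi and 8.48 and 8.41 in the Jarid2 arrays. Both labelled arrays were above all 4 others. The difference of 0.99 ± 0.16 was not called with the larval arrays (limma, adjusted p = 0.0780), and it was called when the spread was taken from all 10 arrays of the series (adjusted p = 0.0139). The position of its probe set relative to the hairpin's target is not stated. The text therefore speaks of the arrays labelled E(z) RNAi throughout.

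Of the 8 genes of PRC2 and its partner proteins, limma called none against controls, and 2 were higher at an unadjusted p under 0.05. Over all 11982 genes, 1071 were higher and 647 lower at that p. Both labelled arrays lay above both control arrays for 5 of the 8, where 3315 of all 11982 genes had that order (42.6% of genes had groups that did not overlap, in either direction), and the median difference was 0.25 against 0.032 for all genes. Pcl, a Polycomb-like protein that helps PRC2 reach its targets, differed by 0.30 ± 0.12 (adjusted p = 0.302). The difference was 0.26 ± 0.13 for esc, the subunit that binds the methylated histone (adjusted p = 0.407), and 0.24 ± 0.12 for the histone chaperone Caf1-55 (adjusted p = 0.415). Su(z)12, a core subunit, differed by 0.10 ± 0.16, and escl, a close relative of esc, by 0.37 ± 0.31. Jarid2, whose protein is a PRC2 partner, read 9.63 and 9.48 in controls and 9.34 and 9.53 in the labelled arrays, against 4.19 and 4.26 in the Jarid2 line. The labelled and control arrays of Jarid2 overlapped, with a difference of -0.12 ± 0.13.

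**Figure D1:**
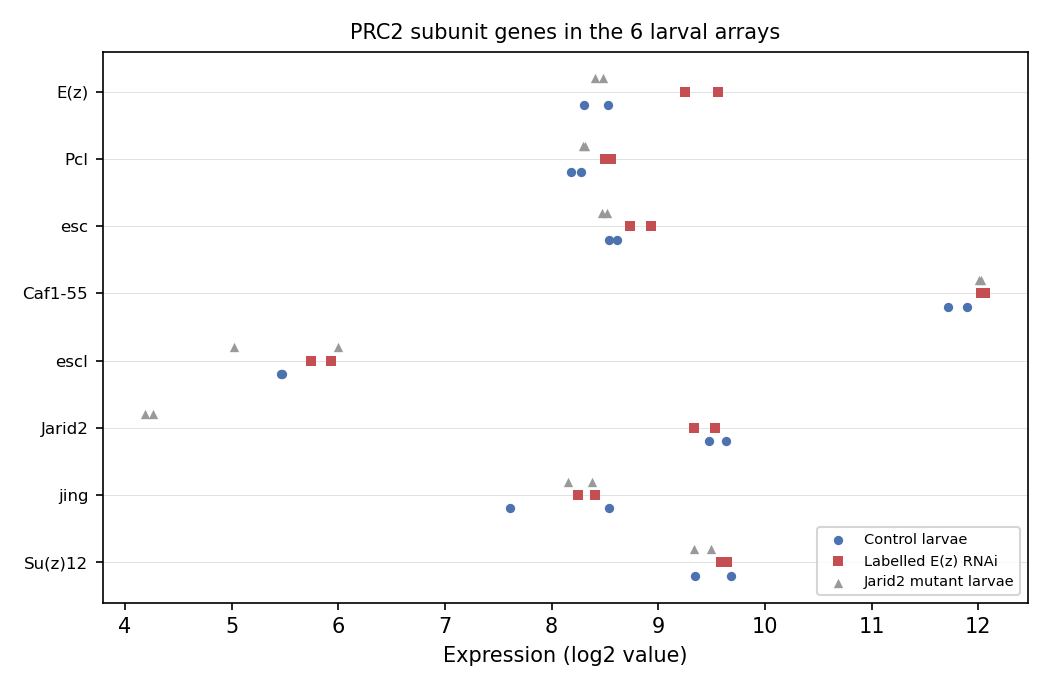
Log2 expression of the 8 PRC2 subunit and partner genes (rows) in each of the 6 larval arrays, with one mark per array and a colour and shape per group. The labelled E(z) RNAi arrays of E(z), 9.25 and 9.56, lie to the right of all other arrays, and only the Jarid2 arrays of Jarid2 lie near 4.

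Genes that act with or against PRC2 also gave no calls. Of 7 measured genes of PRC1 and related complexes limma called 0, and 0 had an unadjusted p under 0.05. The histone H2A ubiquitin ligase gene Sce differed by 0.35 ± 0.15 and the chromodomain protein gene Pc by -0.085 ± 0.16. Of 16 Trithorax group genes, whose products oppose Polycomb silencing, 0 were called and 3 were higher at an unadjusted p under 0.05. Over all 11982 genes, 1071 were higher at that p. The kinase module subunit gene kto differed by 0.42 ± 0.12 (adjusted p = 0.219). The histone methyltransferase gene trr read 8.21 and 7.15 in controls and 8.67 and 8.81 in the labelled arrays, so that its difference of 1.06 ± 0.34 rested in part on the second control array (adjusted p = 0.235).

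The genes that Polycomb silencing is best known for gave no calls either. Of 4 measured Hox genes 0 were called and 0 had an unadjusted p under 0.05: pb differed by 0.34 ± 0.14, Antp by -0.47 ± 0.22, Scr by 0.58 ± 0.30 and Dfd by 0.37 ± 0.25. The other Hox genes were not analysed here. Of 76 other transcription factor and signal genes known as Polycomb targets, limma called 0, while 13 were higher and 3 lower at an unadjusted p under 0.05, beside 1071 and 647 of all 11982 genes. Their median difference was 0.11. The POU domain gene pdm2 read 5.87 and 5.60 in controls and 6.57 and 6.65 in the labelled arrays, a difference of 0.88 ± 0.14 (adjusted p = 0.0798). The zinc finger gene drm read 8.73 and 8.22 against 9.46 and 9.46 (0.99 ± 0.19, adjusted p = 0.111). Neither gene's groups overlapped, as was true of 42.6% of all genes. With the spread of all 10 arrays, 2 of the 76 were called higher and 1 lower, beside 281 and 201 of all 11982 genes.

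Across the whole array, the largest called changes included the pigmentation gene y and genes of defence, detoxification, digestion and lipid metabolism. Of 18769 probe sets 169 were called (0.900%). Of 11982 genes, 117 were called, which is 0.976%: 70 were higher (0.584%) and 47 lower (0.392%) in the labelled E(z) RNAi arrays. Counts of called genes in the gene lists are to be read beside these shares. List counts at an unadjusted p under 0.05 are to be read beside 1071 higher and 647 lower of all 11982 genes. The called rises had a median of 3.31-fold and the called falls of 2.98-fold. At least 4-fold rises numbered 26 and at least 4-fold falls 19. In RNA from whole animals, fewer cells of a type and less RNA per cell cannot be told apart. In 11 of the 70 called rises, y, mthl8, Ser7 and Cpr49Ad among them, both control arrays lay below the lower quartile of their array. In 10 of the 47 called falls, among them Cyp6a20, TotB, CG33337, Lcp65Af and Cyp6a19, both labelled arrays did. The files used give no detection calls, so background may limit the size of these changes.

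The count of called genes differed between fits: it was 482 with all 10 arrays, 2 with the 4 compared arrays alone, 74 without the dimmest 30% of probe sets, 29 with the replicate number as a block, 10 and 5 without the first or second control array, 22 and 1 without the first or second labelled array, and 2 without either Jarid2 array. The 47 called genes among those named by the rule could not change direction under these alternatives, so their direction is no check. Their groups did not overlap, and fits on the deposited values that kept the 4 compared arrays had the same group means. Quantile normalization and median centring rescaled the arrays, and 0 of the 47 changed direction under either. With all 10 arrays 46 of the 47 kept their call, with the replicate block 19, and with the 4 compared arrays alone 2. With each larval array left out in turn, the y difference lay between 4.06 and 4.28. Quantile normalization ended the calls of 7 of the 47, namely LysX, Ir76a, mat, Drs, Cyp4p1, Act88F and sug. The robust prior of limma ended 5, namely LysX, Tmlh, mat, CG32073 and sug. Without the dimmest probe sets 44 of the 47 had a value, and 32 kept their call. The 12 calls that ended were those of all these 9 genes and of Cyt-b5-r, NimC1 and Cyp6a19. The filter itself removed y, CG33337 and Lcp65Af.

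Among genes with a name, y had the largest fitted rise. It encodes a secreted protein needed for black melanin in the cuticle. The y values were 3.65 and 3.80 in the control arrays, 8.01 and 7.79 in the labelled arrays and 3.63 and 3.64 in the Jarid2 arrays. The labelled arrays were above all 4 others, with a difference of 4.17 ± 0.14 (adjusted p = 0.0026). The control arrays were below the lower quartile and not shown to be above background, so no fold is given. None of the 20 measured genes nearest to y on the X chromosome was called. The lowest adjusted p among them was 0.294, for Cyp4g1, and the proneural genes ac and sc next to y differed by -0.22 and 0.028. Of 19 genes of melanin formation and the yellow family, y was the single called one. The yellow-h difference was -0.76 ± 0.13 (adjusted p = 0.0896), and t, whose product is a hydrolase of the pigment pathway, differed by 0.57 ± 0.12 (adjusted p = 0.125).

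Other genes low in controls rose by large folds. Alp7, an alkaline phosphatase, read 5.98 and 5.98 in controls and 9.79 and 10.48 in the labelled arrays, a rise of 4.15 ± 0.26 or 17.8-fold (adjusted p = 0.0098), and the Jarid2 arrays lay between at 7.89 and 8.32. It was the called one of 12 alkaline phosphatase genes. The methuselah-like receptor gene mthl8 read 4.81 and 4.97 against 8.94 and 9.00, a rise of 4.08 ± 0.15 (adjusted p = 0.0026) from controls that were also below the lower quartile. Its other probe set, at 4.52 in the control mean and 7.81 in the labelled mean, had the same direction, and the Jarid2 arrays were as high at 9.63 and 9.92. The receptor genes mth and mthl10 differed by 0.84 ± 0.14 and 1.36 ± 0.24 and were not called among the 15 measured. 

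**Figure D2:**
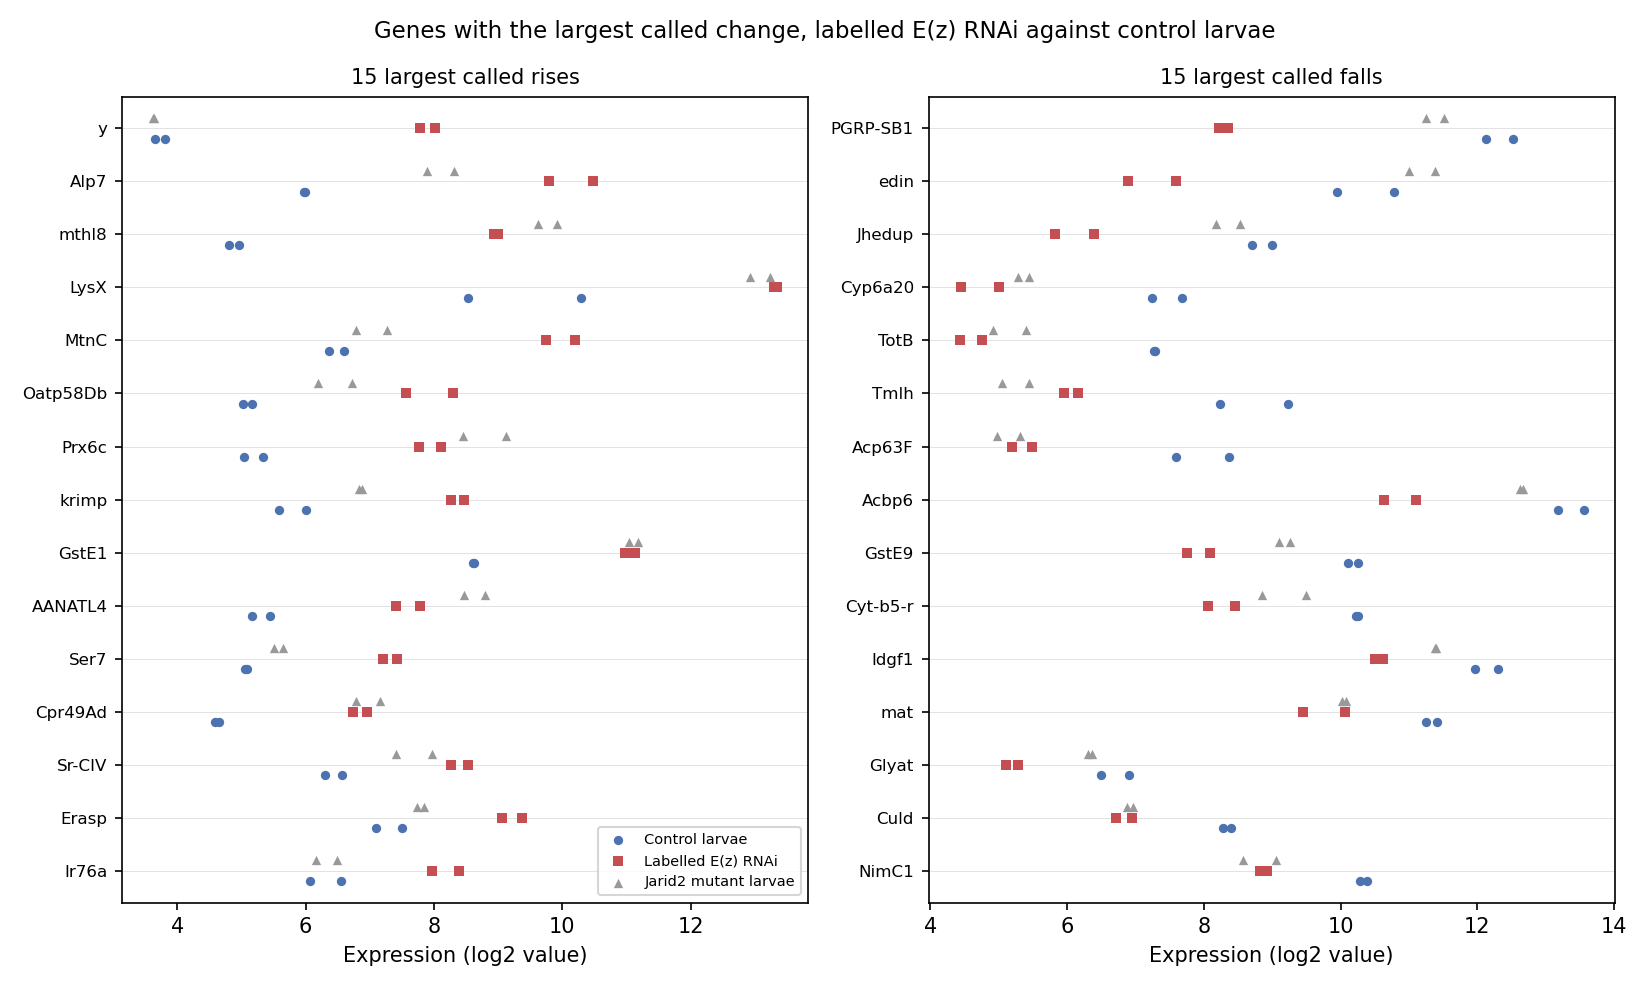
Log2 expression of the 15 named genes with the largest called rises (first panel) and the 15 with the largest called falls (second panel) in each of the 6 larval arrays, one mark per array, coloured by group. Only genes whose labelled and control arrays do not overlap were chosen, as held for 42.6% of all genes. Rows run from y (8.01 and 7.79 in the labelled arrays against 3.65 and 3.80 in controls) to NimC1 (8.92 and 8.82 against 10.28 and 10.39).

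Of 5 metallothionein genes 1 rose, and of 18 antioxidant enzyme genes 1 rose, beside 0.584% of all genes called higher. MtnC, a metallothionein that binds copper and other heavy metals, read 6.37 and 6.59 in controls, 9.74 and 10.20 in the labelled arrays and 7.27 and 6.78 in the Jarid2 arrays. Its rise was 3.49 ± 0.24, or 11.2-fold (adjusted p = 0.0098). The other metallothioneins were not called. MtnB and MtnD differed by 1.45 ± 0.30 and 1.09 ± 0.28, and MtnA, at 14.01 and 14.14 in controls, by -0.30 ± 0.18. MTF-1, the metal-sensing activator of these genes, differed by -0.047 ± 0.13. Prx6c, a peroxiredoxin that removes peroxides, rose by 2.75 ± 0.26 (adjusted p = 0.0177), alone among 18 antioxidant enzyme genes. The immune-regulated catalase gene Irc differed by -0.51 ± 0.11 without a call. Of 16 heat shock and chaperone genes 0 were called, and 1 was lower at an unadjusted p under 0.05.

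Detoxification enzymes changed both ways. Of 34 glutathione transferase genes, GstE1 and GstE5 rose and GstE9 fell, beside 0.584% of all genes called higher and 0.392% called lower. GstE1 read 8.63 and 8.61 in controls and 10.97 and 11.13 in the labelled arrays, a rise of 2.44 ± 0.13 (adjusted p = 0.0069). GstE5 rose by 1.35 ± 0.15 (adjusted p = 0.0260). GstE9 went the other way, from 10.11 and 10.26 to 7.75 and 8.10, a fall of 2.26 on the log2 scale with a standard error of 0.16 (adjusted p = 0.0112). These 3 genes lie in one cluster, with GstE9 3 measured genes past GstE5. A dim second probe set of GstE9, with group means of 3.82 and 3.73, did not show the fall.

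Of 83 cytochrome P450 genes, which encode oxidases of hormones and foreign compounds, 1 rose and 3 fell. Over all genes 0.584% were called higher and 0.392% lower. Cyp6a20 read 7.25 and 7.69 in controls and 4.45 and 5.01 in the labelled arrays, and fell by 2.74 on the log2 scale (SE 0.24, adjusted p = 0.0162). Its neighbour Cyp6a19 fell by 1.05 (SE 0.14, adjusted p = 0.0404), and Cyp4p1 by 1.23 (SE 0.16, adjusted p = 0.0429). Cyp6t1 rose by 1.08 ± 0.13 (adjusted p = 0.0340). Among uptake transporters, Oatp58Db rose from 5.03 and 5.16 to 7.56 and 8.30 (2.84 ± 0.29, adjusted p = 0.0233), while Oatp30B differed by -1.33 ± 0.23 without a call among the 8 measured. The difference of Cyt-b5-r, a cytochrome b5-related gene, was -1.98 ± 0.25 (adjusted p = 0.0398), and it read 10.26 and 10.23 in controls against 8.06 and 8.46.

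Several genes of humoral immunity fell in the larvae labelled E(z) RNAi. In flies, peptidoglycan recognition proteins detect bacterial cell walls and feed the Imd pathway, whose factor Relish switches on antimicrobial peptide genes in the fat body. PGRP-SB1, a secreted peptidoglycan recognition protein, read 12.52 and 12.13 in controls, 11.25 and 11.51 in the Jarid2 arrays and 8.23 and 8.35 in the labelled arrays. Its fall of 4.03 on the log2 scale (SE 0.18) was 16.3-fold (adjusted p = 0.0057). The 2 labelled arrays were far below all 4 others. Of the 18 measured genes of peptidoglycan recognition and Imd regulation 1 was called, beside 0.392% of all genes called lower, and 8 had both labelled arrays below both controls, an order found in 1795 of all 11982 genes. Rel, which encodes Relish, read 11.67 and 12.12 against 11.12 and 10.97, and its difference of -0.85 ± 0.19 was not called (adjusted p = 0.137). The difference of key, which encodes a regulatory subunit of the kinase complex that activates Relish, was -0.55 ± 0.12 (adjusted p = 0.130), and that of PGRP-SC2, an amidase that degrades peptidoglycan, was 0.84 ± 0.26 (adjusted p = 0.225).

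Of 18 antimicrobial peptide genes 2 fell and none rose, beside 0.392% of all genes called lower and 0.584% called higher. The peptide gene edin read 9.94 and 10.78 in controls and 6.89 and 7.59 in the labelled arrays, a fall of 3.12 on the log2 scale (SE 0.36, adjusted p = 0.0304). Drs, which encodes the antifungal peptide drosomycin, read 13.49 and 13.48 against 12.36 and 11.97, a fall of 1.33 (SE 0.16, adjusted p = 0.0360). The call of Drs was lost with all 10 arrays (adjusted p = 0.150). CecB, a cecropin gene, read 9.18 and 10.10 against 6.84 and 7.68, and its difference of -2.38 ± 0.42 was not called (adjusted p = 0.0916). The drosomycin-like gene Drsl3 differed by -1.51 ± 0.24 (adjusted p = 0.0768). AttD and DptB differed by -2.01 ± 0.53 and -1.89 ± 0.85, with labelled arrays of DptB as far apart as 8.53 and 11.30. Both labelled arrays were below both controls for 8 of the 18 genes and above them for 0, and the list's median was -0.070. Over all 11982 genes 1795 had the lower and 3315 the higher order.

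Stress and blood cell genes gave single calls. TotB, one of the Turandot genes that are secreted under stress through JAK/STAT signalling, read 7.28 and 7.27 in controls and 4.76 and 4.43 in the labelled arrays, and fell by 2.68 on the log2 scale (SE 0.20, adjusted p = 0.0121). It was the called one of 14 measured JAK/STAT and Turandot genes, with a list median of -0.33. TotC and TotE were high in the first control array alone, at 9.63 and 10.78, against 5.10 and 6.67 in the second, and were not called. NimC1, a phagocytosis receptor of plasmatocytes, the larval blood cells that engulf bacteria, read 10.28 and 10.39 against 8.92 and 8.82 and fell by 1.46 (SE 0.18, adjusted p = 0.0388). The other 23 of 24 haemocyte genes were not called. Their receptor gene eater differed by 0.82 ± 0.28 and the collagen gene vkg by 0.77 ± 0.26, against the direction of NimC1, and the list median was 0.16. The scavenger receptor gene Sr-CIV rose by 1.97 ± 0.23 (adjusted p = 0.0310). Idgf1, a chitinase-like growth factor that haemocytes and fat body secrete, fell by 1.58 (SE 0.15, adjusted p = 0.0186). It was the called one of 16 chitinase and chitinase-like genes, while Cht9 differed by -2.80 ± 0.47 (adjusted p = 0.0819).

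**Figure D3:**
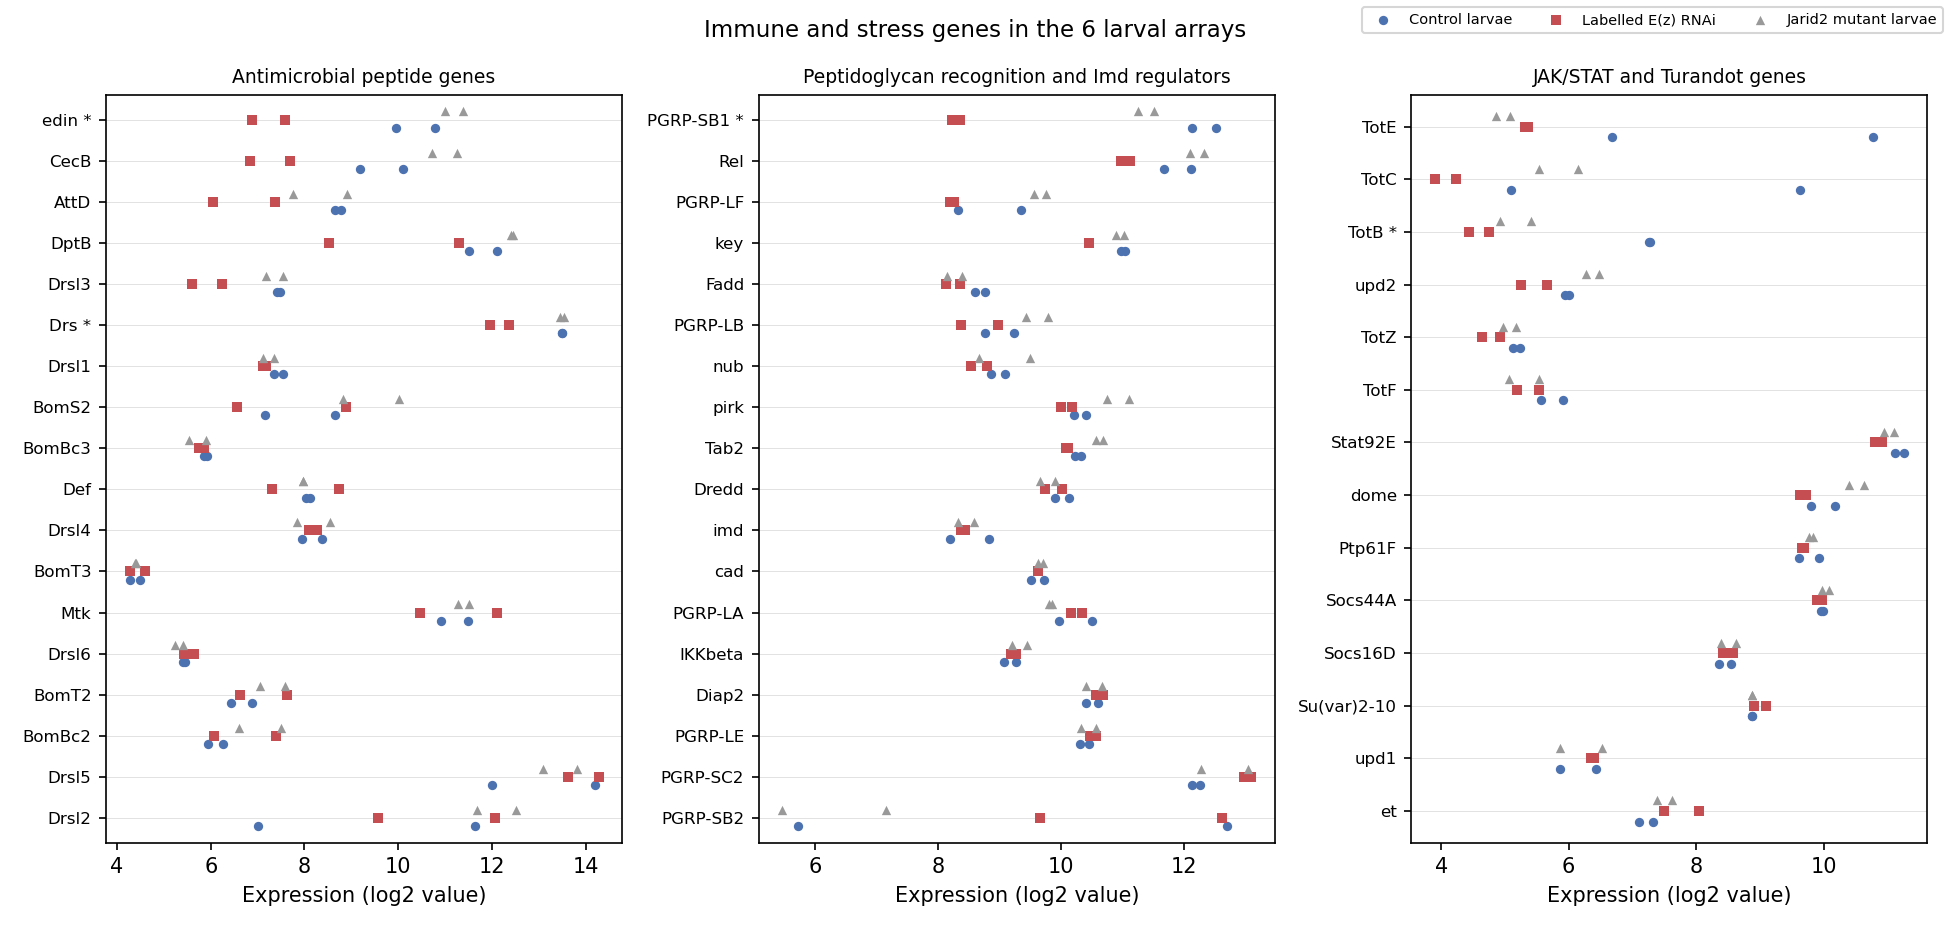
Log2 expression of each measured gene of 3 immune and stress lists (one panel per list, genes as rows sorted by difference) in the 6 larval arrays, one mark per array, with an asterisk at called genes. For edin, Drs, PGRP-SB1 and TotB both labelled E(z) RNAi arrays lie left of both control arrays, while TotC, TotE, Drsl2 and PGRP-SB2 have control arrays far apart.

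Digestive genes changed gene by gene. LysX, a lysozyme, read 10.29 and 8.54 in controls and 13.35 and 13.29 in the labelled arrays. The LysX rise of 3.90 ± 0.54 was close to the threshold (adjusted p = 0.0492, and 0.0624 after quantile normalization). It was 14.98-fold, and 27.5-fold without the first control array and 8.16-fold without the second, with Jarid2 arrays at 12.92 and 13.24. LysP and LysS, the other measured lysozymes, differed by -1.39 ± 0.69 and -0.31 ± 0.28. Of 27 Jonah, trypsin and Ser-named protease genes, Jon74E rose by 1.70 ± 0.20 (adjusted p = 0.0304) and Ser7 by 2.23 ± 0.14 (adjusted p = 0.0098). Over all genes 0.584% were called higher. Ser7 is in this list by its name, and a role of it in digestion was not tested. Jon25Bi and Jon25Bii differed by 1.63 ± 0.27 and 1.20 ± 0.24, Jon25Biii by -0.63 ± 0.16 and Jon44E by -0.86 ± 0.28, all without a call. Of 16 carbohydrate enzymes 0 were called, and 1 was higher and 4 lower at an unadjusted p under 0.05. Over all 11982 genes, 1071 were higher and 647 lower at that p. The maltase gene Mal-A6 differed by 1.04 ± 0.16 (adjusted p = 0.0664), and Mal-A1 by -1.22 ± 0.23.

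In lipid and energy metabolism the single called lipid carrier was Acbp6, an acyl-CoA binding protein. Control arrays were at 13.18 and 13.55 and labelled arrays at 10.64 and 11.11, a fall of 2.50 on the log2 scale (SE 0.21, adjusted p = 0.0146). Its relatives on the same arm split: Acbp4 differed by -2.10 ± 0.38, Acbp3 by 2.40 ± 0.46 and Acbp5 by 1.93 ± 0.31, and none of these was called. Of 13 lipase and lipid droplet genes limma called 0, yet 6 were lower and 0 higher at an unadjusted p under 0.05, and 9 had both labelled arrays below both controls. Over all 11982 genes these counts were 647 lower, 1071 higher and 1795 in that order. The list median was -0.45. The lipase gene Lip3 differed by -1.71 ± 0.29 (adjusted p = 0.0828), the fatty acid synthase gene FASN1 by -1.09 ± 0.21 (adjusted p = 0.111) and the fat storage lipase gene bmm by -0.45 ± 0.13.

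Of the 7 fatty acid elongases and the 15 fat body genes none was called by limma. At an unadjusted p under 0.05, 1 elongase and 4 fat body genes were higher and 1 and 3 lower, beside 1071 higher and 647 lower of all 11982 genes. The iron transporter gene Tsf1 differed by -0.98 ± 0.16 (adjusted p = 0.0785). The nutrient genes gave 1 call in 20: sug, a zinc finger factor induced by dietary sugar, read 9.09 and 8.65 against 10.12 and 10.29 and rose by 1.34 ± 0.19 (adjusted p = 0.0496). The glucosidase gene tobi, which insulin and adipokinetic hormone control, read 7.79 and 7.38 against 6.18 and 6.22, a difference of -1.39 ± 0.22 (adjusted p = 0.0719).

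Hormone genes gave 1 call. Jhedup, a relative of juvenile hormone esterase, read 9.00 and 8.71 in controls and 5.82 and 6.40 in the labelled arrays, and fell by 2.74 on the log2 scale (SE 0.24, adjusted p = 0.0162). No other of the 12 juvenile hormone genes was called. Among 13 ecdysone biosynthesis and 21 ecdysone response genes limma called 0, with 1 biosynthesis gene lower at an unadjusted p under 0.05. The ecdysone receptor gene EcR differed by -0.66 ± 0.28 (adjusted p = 0.338). The enzyme genes AANATL4 (an arylalkylamine acetyltransferase relative), Tmlh (an enzyme of carnitine synthesis) and Glyat (an acyltransferase) were called too. AANATL4 rose by 2.29 ± 0.20 (adjusted p = 0.0162), Tmlh differed by -2.67 ± 0.34 (adjusted p = 0.0395) and Glyat by -1.51 ± 0.18 (adjusted p = 0.0309).

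Structural genes gave 3 calls, where 0.584% of all genes were called higher and 0.392% lower. Of 114 cuticle protein genes Cpr49Ad rose by 2.23 ± 0.17 (adjusted p = 0.0121) and Lcp65Af fell by 1.34 (SE 0.16, adjusted p = 0.0337). Act88F, the actin of the indirect flight muscle, read 5.30 and 5.08 against 6.59 and 6.28 and rose by 1.24 ± 0.16 (adjusted p = 0.0404). It was the called one of 24 muscle genes, whose median difference was 0.52 against 0.032 for all genes, and the myosin light chain gene Mlc2 had labelled arrays apart at 7.91 and 9.44. Of 69 mitochondrial ribosomal, 41 cytosolic ribosomal and 29 cell cycle genes limma called 0, with 4, 0 and 4 higher and 1, 0 and 0 lower at an unadjusted p under 0.05. Medians were 0.11, 0.028 and 0.16. The 19 Malpighian tubule, 16 neuronal, 17 epidermal, 19 eye pigment and 20 salivary glue genes also held 0 calls. At an unadjusted p under 0.05, 4, 0, 1, 2 and 3 of them were higher and 2, 0, 0, 1 and 2 lower. Over all 11982 genes, 1071 were higher and 647 lower at that p.

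**Figure D4:**
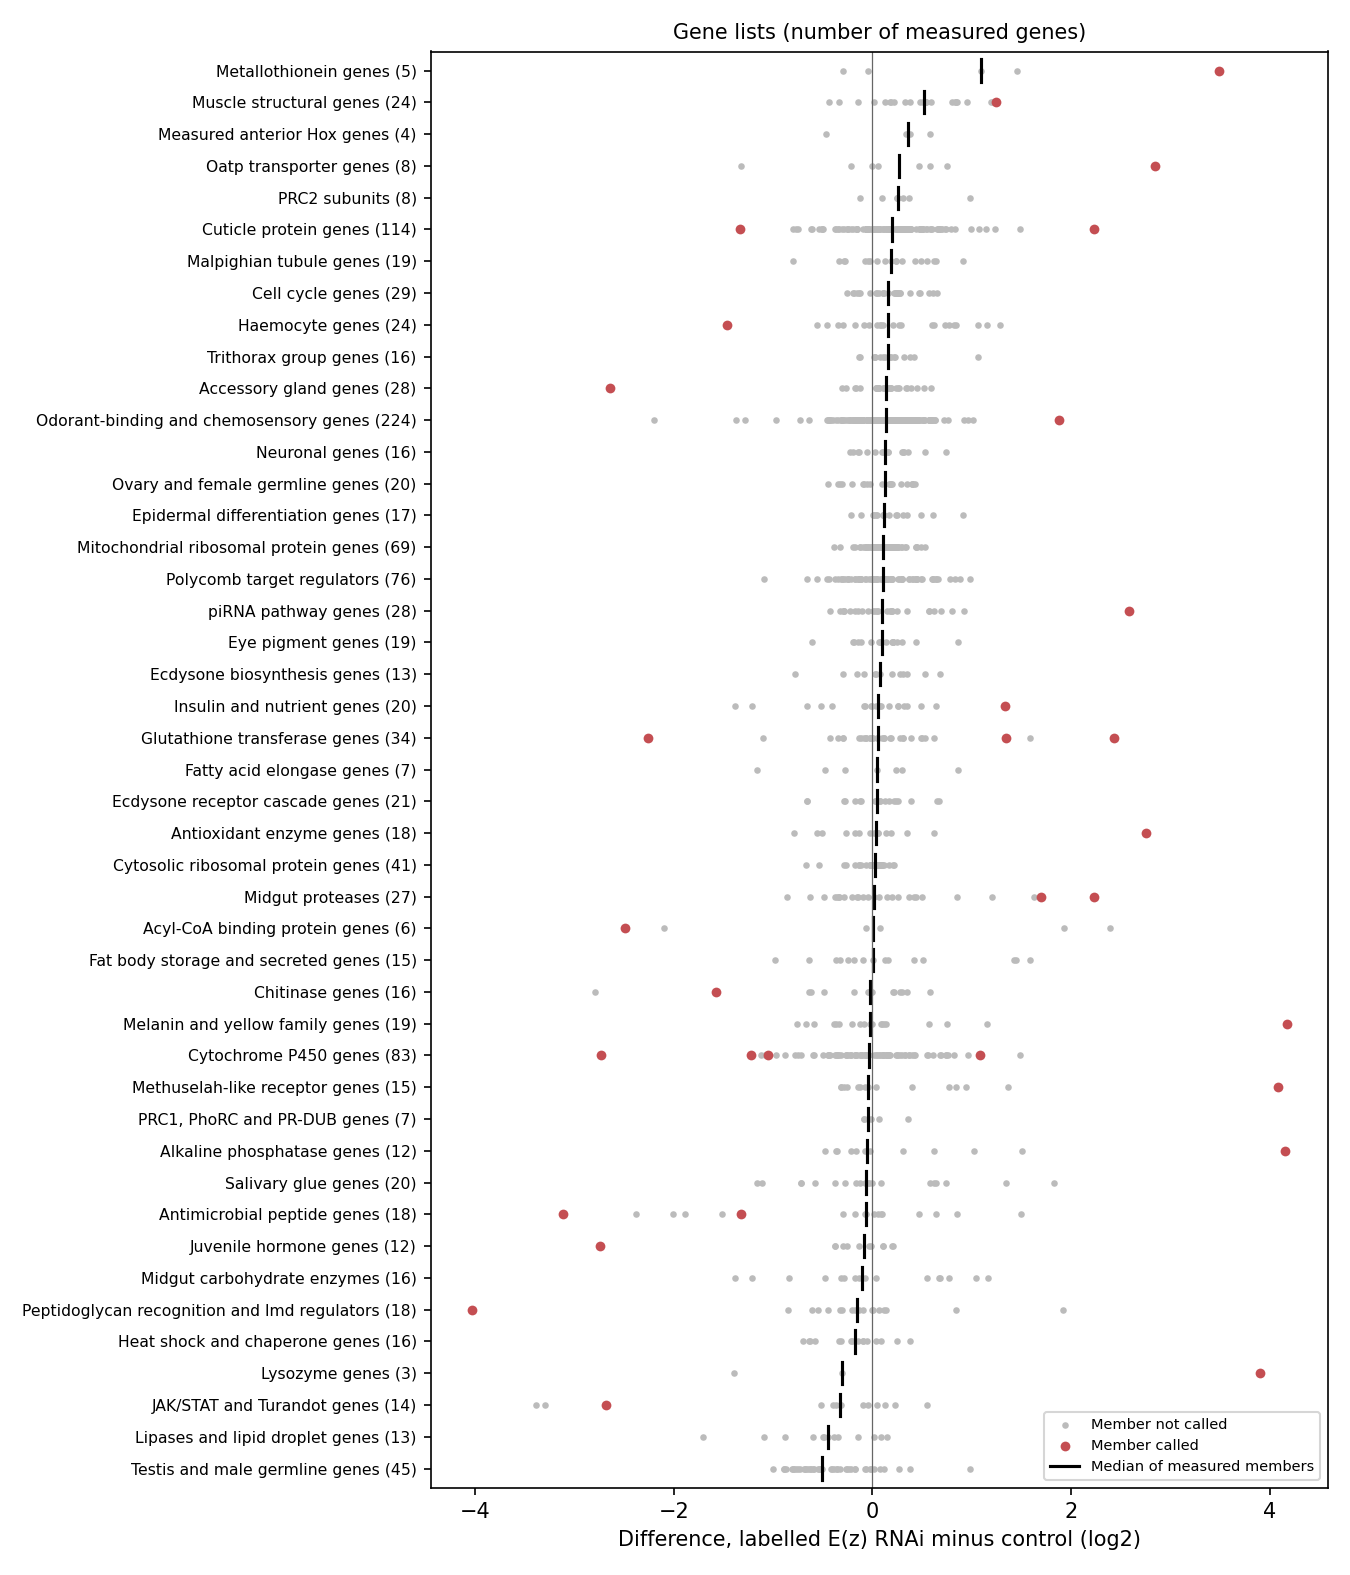
Differences between labelled E(z) RNAi and control larvae (log2, horizontal axis) for the 45 gene lists (rows, with the number of measured genes), showing each gene, the called genes and each list's median. Medians run from 1.09 for metallothioneins to -0.51 for testis genes, and most lists hold either no called gene or a single one.

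Germline genes included 1 call. The gene krimp, whose Tudor domain protein works in the piRNA pathway that silences transposons in the gonad, read 5.58 and 6.0 in controls, 8.27 and 8.47 in the labelled arrays and 6.83 and 6.88 in the Jarid2 arrays. It rose by 2.58 ± 0.18, or 5.99-fold (adjusted p = 0.0098). Of the 28 measured piRNA pathway genes 7 were higher and 0 lower at an unadjusted p under 0.05, among them del, a piRNA cluster factor, with 0.92 ± 0.18 (adjusted p = 0.107), and 13 had both labelled arrays above both controls. Over all 11982 genes 1071 were higher at that p and 3315 had that order. Of 45 testis genes limma called 0, with 1 higher and 2 lower at an unadjusted p under 0.05. The differentiation gene bam differed by 0.98 ± 0.17 (adjusted p = 0.0916). The median level of the testis list was 8.13 and 9.56 in the control arrays and 8.64 and 7.83 in the labelled arrays. The arrays of one group thus differed by more than the groups. Among the 45 testis genes 40 overlapped, beside 6872 of all 11982 genes. Of 20 ovary genes 0 were called and 4 were higher at an unadjusted p under 0.05. Acp63F, named for the male accessory gland, fell from 8.37 and 7.59 to 5.49 and 5.20 (SE 0.29, adjusted p = 0.0261), and the other 27 accessory gland genes were not called. Of 224 chemosensory genes 1 rose: Ir76a, an ionotropic receptor, by 1.88 ± 0.24 (adjusted p = 0.0404), beside 0.584% of all genes called higher.

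Genes known only by a number made up 34 of the 70 called rises and 22 of the 47 called falls. CG14852 had the largest called difference of all. Its control arrays were at 10.91 and 11.36 and its labelled arrays at 5.65 and 6.36, 35.04-fold lower (-5.13 ± 0.29, adjusted p = 0.0072). The Jarid2 arrays were low as well, at 6.72 and 6.41. CG11893 read 9.89 and 9.20 against 6.47 and 5.69 (-3.46 ± 0.34), and CG4716 11.41 and 11.69 against 8.79 and 8.99 (-2.66 ± 0.19), where a second probe set moved the same way from 10.61 to 7.87. The difference of CG33337 was -2.49 ± 0.28. On the higher side, CG18585 read 7.98 and 8.24 against 11.52 and 11.75 (3.53 ± 0.24). CG9903, CG32073 and CG13488 rose by 3.19 ± 0.16, 3.02 ± 0.38 and 3.01 ± 0.27, and CG32073 by 3.62 or 2.42 with the first or the second labelled array left out. The files name no role for these genes.

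The remaining named genes of the 30 largest changes were of mixed kinds. Erasp rose from 7.51 and 7.09 to 9.06 and 9.38 (1.92 ± 0.19, adjusted p = 0.0211). The differences of mat and Culd were -1.57 ± 0.22 (adjusted p = 0.0491) and -1.50 ± 0.14 (adjusted p = 0.0167). Chosen after their values were seen, some called genes with smaller changes have known roles in signalling and chromatin. The JNK phosphatase gene puc, itself induced by JNK signalling, read 11.85 and 11.85 against 10.88 and 10.57, a fall of 1.13 on the log2 scale (SE 0.15, adjusted p = 0.0451). The stress kinase gene p38c fell by 1.04 (SE 0.14, adjusted p = 0.0455), and the FGF ligand gene pyr by 1.04 (SE 0.14, adjusted p = 0.0451). Set8, a methyltransferase of histone H4, read 7.45 and 7.16 against 8.48 and 8.42, a rise of 1.14 ± 0.16 (adjusted p = 0.0488). Pfas, an enzyme of purine synthesis, fell by 1.13 (SE 0.12, adjusted p = 0.0252).

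By chromosome arm, called genes were counted on each of the 5 large arms. On the X, 17 of 1873 genes were higher (0.908%) and 2 lower (0.107%), against 6 and 9 of 2205 on 2L, 19 and 8 of 2427 on 2R, 10 and 13 of 2344 on 3L, and 18 and 14 of 2974 on 3R. The median difference of X genes was 0.072. No test of these shares was made. In the gene order of the reference annotation (Release 6 plus ISO1 MT), 10 of the 117 called genes had a called gene as their nearest measured neighbour, in 5 pairs. Over all 11982 genes 0.976% were called. How many such pairs a random order would give was not tested. In 4 pairs both genes moved the same way: CG12560 and Glyat, CG13053 and CG34247, and CG14852 and CG31313 fell, and lncRNA:CR32027 and CG6865 rose. In the other pair CG13658 rose by 2.59 and CG11893 fell by 3.46 on the log2 scale. MtnC, which rose, and Tmlh, which fell, lie 2 measured genes apart.

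Of the called genes, 9 had several probe sets, with 13 probe sets besides the brightest. Of these 13, 11 had the sign of the brightest one. The exceptions were Drep3, with group means of 5.95 and 5.62 in its other probe set, and one probe set of CG44014 at 5.56 and 6.06.

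Set directly against the Jarid2 arrays, the labelled E(z) RNAi arrays differed in 252 probe sets (1.34%) and 172 of 11982 genes (1.44%), 83 higher (0.693%) and 89 lower (0.743%). As both comparisons with controls share the same control arrays, their values are given side by side without a measure of overlap. The y difference to the Jarid2 arrays was 4.27 ± 0.14 (adjusted p = 0.0006), and that of PGRP-SB1 was -3.09 ± 0.18 (adjusted p = 0.0061). For edin it was -3.95 ± 0.36 (adjusted p = 0.0153) and for CecB -3.73 ± 0.42 (adjusted p = 0.0243), with CecB in the Jarid2 arrays at 10.72 and 11.26. For these 3 immune genes both labelled arrays lay below all 4 other larval arrays.

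Jarid2 itself was 5.21 ± 0.13 higher in the labelled arrays (adjusted p = 0.0006), and Elovl7, an elongase gene, 6.97 ± 0.20 higher (adjusted p = 0.0006). Elovl7 read 11.52 and 11.63 in controls, 11.35 and 10.85 in the labelled arrays and 4.00 and 4.26 in the Jarid2 arrays. Antdh, a dehydrogenase named for the antenna, was 4.65 ± 0.33 higher (adjusted p = 0.0074), CG32198 4.99 ± 0.59 higher (adjusted p = 0.0256) and Cyp4p2 -3.54 ± 0.23 apart (adjusted p = 0.0068). CG14219 read 7.70 and 8.15 in controls, 4.85 and 4.94 in the labelled arrays and 10.31 and 8.49 in the Jarid2 arrays, with the controls between, a direct difference of -4.50 ± 0.57 (adjusted p = 0.0311).

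Some of the large called changes had Jarid2 arrays on the same side of the controls. For GstE1 the difference to controls was 2.44 ± 0.13 in the labelled arrays and 2.49 ± 0.13 in the Jarid2 arrays. For mthl8 the values were 4.08 and 4.89, for Prx6c 2.75 and 3.60, for CG9903 3.19 and 2.99, for CG14852 -5.13 and -4.57, for Tmlh -2.67 and -3.49, and for NimC1 -1.46 and -1.52. The direct contrast called none of these 7. Others had Jarid2 arrays near the controls, with differences of 0.54 ± 0.24 for MtnC, 0.51 ± 0.14 for Ser7, -0.50 ± 0.24 for Jhedup and 0.015 ± 0.24 for Ir76a, and all 4 were called in the direct contrast.

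A set of genes differed more between arrays of one group than between groups. At least 4-fold apart between the replicates were 55 genes in controls, 27 in the labelled E(z) RNAi arrays and 7 in the Jarid2 arrays. In both of the first 2 groups 19 genes were so, and in 18 of these the first array was the higher one in both groups, the exception being CG4757. They included Eig71Ed, an ecdysone-induced gene of the salivary gland, at 11.33 and 4.39 in controls and 9.98 and 4.97 in the labelled arrays. The pigment enzyme gene e read 13.63 and 7.47, and 13.44 and 9.96, and the recognition protein gene PGRP-SB2 12.70 and 5.73, and 12.61 and 9.66. None of the 19 was called, and for such genes the comparison had a standard error between 1.03 and 2.60.

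**Figure D5:**
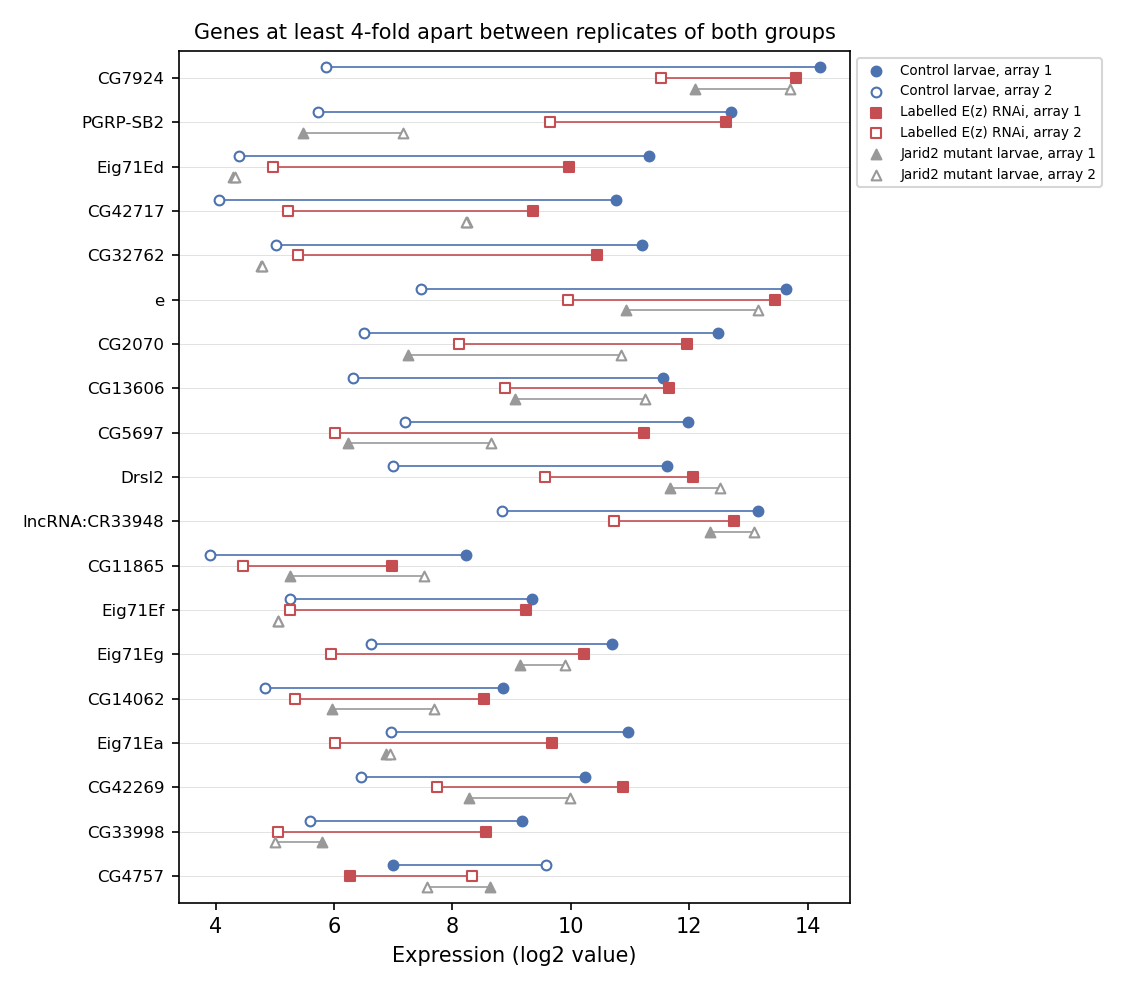
Log2 expression in each of the 6 larval arrays of the 19 genes (rows) whose replicates were at least 4-fold apart in both control and labelled E(z) RNAi larvae, with arrays told apart by colour for the group and marker for the replicate. The first array lies to the right of the second in both groups in every row except CG4757.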

How the data were processed

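RNA from whole larvae and sorted disc cells was measured on 1-colour Affymetrix Drosophila arrays, 10 arrays in 5 groups of 2. The authors deposited 1 value per probe set and array on the log2 scale, which follows from the range. The submitters' processing notes name limma 3.4.3. How background was corrected, arrays normalized and probes summarised is not stated in the sources used here. Columns were matched by name, with 0 unmatched.

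Of 18952 probe sets, 183 were the maker's controls and 18769 were tested. The platform annotation gave 1 gene for 13647 of them, several for 402 and none for 4720. Of the 13647, 13544 were found in the reference gene table and 0 symbols changed. Only probe sets with 1 gene were named, and of several for a gene the one with the highest larval mean was used (11982 genes).

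The limma 3.58.1 functions lmFit and eBayes (R 4.3.3) were run on the 6 larval arrays without covariates, which left 3 residual and 2.72 prior degrees of freedom, and p-values were two-sided with Benjamini-Hochberg adjustment. The disc arrays were kept for an alternative, since their median residual SD was 0.0978 against 0.16 in larvae. The fit was tested on simulated data for the comparison with controls (10 runs of 18769 probe sets, 200 changed), where it called 37.6% of 2-fold and 79.4% of 4-fold changes and 5.84% of its calls were false. The simulated noise was normal, independent between arrays and of the spread of these arrays. It held no replicate differences shared between groups, so these shares need not hold for the real calls. The number of arrays limits the precision. Replicates correlated with r of 0.983 in control, 0.987 in labelled E(z) RNAi and 0.995 in Jarid2 arrays.

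The comparison, its groups and the 45 gene lists were chosen with earlier results of these data known. Lists are described by counts and medians. Named genes were the 15 largest called rises and falls of genes with a name and groups that do not overlap, the 4 largest each way for numbered CG or CR genes, PRC2 genes, up to 4 called members per list or the 2 with the smallest p, and the 5 largest each way in the contrast with Jarid2 larvae. Other genes in the text are list members, neighbours or genes given to show replicate spread, chosen after values were seen. Alternatives changed the arrays in the fit, the scaling, the filter on dim probe sets, limma's prior, the replicate block and the minimum fold, and left out each array. Figures were drawn with matplotlib 3.10.9.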

Additional observations from a re-analysis of the deposited data

How the results depend on the processing

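Against controls, 169 probe sets and 117 genes were called, and 252 probe sets against Jarid2 larvae. With all 10 arrays these were 769, 482 and 1146, and E(z), at 0.99, was then called. Of the 117 genes, 115 were among the 482. The 4 compared arrays alone called 2 probe sets and 2 genes. Without the dimmest 30% of probe sets the counts were 97, 74 and 142, and limma's intensity trend called 391 probe sets against Jarid2 larvae. With 1 array left out, which leaves fewer degrees of freedom, counts ranged from 1 to 28 probe sets and 1 to 22 genes against controls and from 5 to 185 against Jarid2 larvae, and the E(z) difference from 0.83 to 1.14. Quantile normalization, median centring, the robust prior and a 2-fold minimum kept all 3 counts within 1.5 times and E(z) uncalled, while quantile normalization ended 7 of the 47 named calls and the robust prior 5. Reversed differences, none called, came with 1 array left out: Pc ranged from -0.23 to 0.062 (0.043 without the first labelled array), jing from -0.22 to 0.71, Su(z)12 from -0.068 to 0.27 and CG32198 from -1.30 to 0.45. The labels tie same-numbered arrays by the number alone. Over all probe sets, deviations of same-numbered arrays correlated at -0.212 between control and labelled arrays, -0.422 between control and Jarid2 and 0.00639 between labelled and Jarid2. With the replicate block, 37 probe sets and 29 genes were called against controls and 45 probe sets against Jarid2 larvae, and the E(z) adjusted p was 0.2134. Of the 70 called rises, 11 started from control arrays below the lower quartile, where signal limits the fold.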

Other observations

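Further called genes with known functions, chosen after their values were seen, rose or fell in the arrays labelled E(z) RNAi. Gld, the glucose dehydrogenase gene, read 10.96 and 11.09 in control arrays and 12.26 and 12.20 in the labelled arrays, a rise of 1.21 ± 0.13 (limma, adjusted p = 0.0246). The neuropeptide-processing chaperone gene 7B2 rose by 1.39 ± 0.13 (adjusted p = 0.0167), and Mgstl, a microsomal glutathione transferase gene that the glutathione transferase list did not hold, by 1.03 ± 0.14 (adjusted p = 0.0451). The multidrug transporter gene Mrp5 rose by 1.49 ± 0.13 (adjusted p = 0.0162), with the Jarid2 arrays at 8.60 and 8.69 beside 8.41 and 8.41 in the labelled arrays. Among the falls, Syt7, a synaptotagmin gene of the fourth chromosome, read 6.45 and 6.38 in controls and 4.98 and 4.94 in the labelled arrays, a fall of 1.46 on the log2 scale (SE 0.11, adjusted p = 0.0126). The labelled arrays lay below the lower quartile. It was the single called gene of the 65 measured on that chromosome.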
